A study of Rattus norvegicus with 30 samples.

Results

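The brush border is the carpet of microvilli on the absorptive cells of the small intestine, and 10 genes for its enzymes, transporters and scaffold were followed here: Slc2a2, Slc2a5, Slc5a1, Treh, Lct, Vil1, Slc15a1, Anpep, Dpp4 and Mme. Members were found as array probe sets annotated with exactly 1 gene symbol, that of the gene. This gave 9 measured genes of the 14217 genes that have such a probe set on the array. Lct, the lactase gene, had none and was not analysed here, and Dpp4 had 2. Where a gene had 2, the brighter over all 30 arrays was used and the other was kept as a check. Expression was read on Affymetrix rat gene expression arrays in whole jejunum, stomach and colon of female DA rats aged 10 weeks. Dosed rats got 200 mg/kg of the topoisomerase I inhibitor irinotecan into the peritoneum under light halothane and were killed 1, 6, 24 or 72 h later, while the rats of the 0 h group received no irinotecan. Food and water were freely available, and flushed sections of whole organ were used. The 15 groups (3 tissues at 5 times) have 2 arrays apiece, and an array carried RNA pooled from 3 of the 6 rats of its time, so the spread between arrays is a spread between pools. The sources used here do not say whether the undosed rats had a sham injection or halothane.

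Digestion of sugars and peptides ends at this membrane. Enzymes anchored in it cut disaccharides and short peptides, and transporters beside them carry the products into the cell, while other transporters on the far side of the cell pass sugars on to the blood. Many genes of this kind are switched on as cells leave the crypt and mature along the villus, and the cells are shed within days. Transcripts of such genes are used as markers of the mature small intestinal lining. Irinotecan, a chemotherapy drug, kills dividing crypt cells and causes diarrhoea.

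Slc5a1 encodes the sodium-coupled glucose transporter of the luminal membrane, Slc2a5 the fructose transporter there, and Slc2a2 the carrier through which glucose and fructose leave the cell. Treh encodes trehalase, which cuts the sugar trehalose. Anpep (aminopeptidase N), Dpp4 (dipeptidyl peptidase) and Mme (neprilysin) cut peptides, and Slc15a1 takes up the short peptides that result. Vil1 encodes villin, which bundles actin in the microvillus core.

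The labels of the tissues were borne out by marker genes of each tissue. The mean log2 signal of 13 markers of small intestinal absorptive cells was 12.58 to 13.01 on the jejunum arrays, against 7.13 to 9.20 on the stomach arrays and 7.65 to 9.26 on the colon arrays. Markers of gastric glands averaged 12.45 to 13.34 on the stomach arrays and at most 9.23 on the others. Those of colonic surface cells averaged 10.97 to 11.55 on the colon arrays and at most 10.03 on the others. Some arrays stood apart. The first pool of the stomach at 72 h had a pancreatic acinar marker mean of 13.26, against 8.90 in the second pool and 7.51 to 8.62 on the other stomach arrays. It also held liver transcripts, which were looked at after its values were seen: Alb was 14.06 in the first pool, against 10.46 in the second and at most 8.89 on the 28 other arrays of the study. Acinar markers averaged 12.00 in the second pool of the colon at 72 h and 9.04 in the first pool of the colon at 6 h. Pgc, a stomach gene, was 13.67 in the first pool of the colon at 24 h. Below, arrays that hold transcripts of another organ are those over 2 log2 units above the undosed arrays in the acinar marker median or, outside the stomach, in Pgc. Colon arrays under this limit were not all free of such transcripts. Ins1, an insulin gene, was 9.69 in the second colon pool at 1 h and 9.61 in that at 6 h, against 7.16 and 7.45 at 0 h. Pgc was 9.76 in the first colon pool at 72 h, against 8.45 and 6.60 at 0 h. All comparisons with 0 h in a tissue share its 2 undosed arrays. In the jejunum, the 3′ signal of GAPDH lay 0.816 above its 5′ signal in the first pool at 24 h, against -0.057 to 0.381 on the 9 other jejunum arrays.

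In undosed rats all 9 measured genes were brightest in the jejunum. Each was higher there than in the stomach (9 of 9, where 14.9% of all 31042 probe sets were higher and 32.2% differed in either direction at an adjusted p under 0.05 from limma). Each was also higher than in the colon (9 of 9, where 25.8% of all probe sets were higher and 45.7% differed). The median difference of the members was 3.68 log2 units against the stomach and 3.05 against the colon, where the medians of all probe sets were 0.03 and 0.08.

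Slc2a2, Slc2a5, Slc5a1 and Treh, which serve sugars, had low signals in both other tissues of undosed rats. Slc2a2 had log2 signals of 12.20 and 12.19 in undosed jejunum, against 5.58 and 5.51 in stomach and 5.70 and 7.05 in colon, a difference of 6.65 (SE 0.666, adjusted p = 2.01e-07) from stomach. Its median in stomach lay at percentile 9.25 of all probe sets, so this difference is best read as a lower bound. Slc2a5 read 9.75 and 9.82 in undosed jejunum, against 6.74 and 6.78 in stomach and 6.77 and 6.86 in colon. Slc5a1 followed with 10.00 and 10.00 in jejunum, against 6.70 and 6.63 in stomach and 6.67 and 7.31 in colon. Stomach and colon did not differ for Slc2a2, Slc2a5, Slc5a1 or Treh beyond the threshold, with differences of -0.83 to 0.12. Treh was 9.28 and 9.21 in jejunum, against 6.38 and 6.24 in stomach and 6.27 and 6.12 in colon.

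The other 5 genes differed between stomach and colon. Vil1 was 12.74 and 12.76 in undosed jejunum and 11.77 and 11.72 in colon, a difference of only 1.00 (SE 0.284, adjusted p = 0.00801), and 7.72 and 7.84 in stomach. Between stomach and colon, 4 of the 9 members were lower in stomach (15.1% of all probe sets) and 1 higher (18%), with 33.1% of probe sets differing in either direction. The log2 differences of the 4 were -3.97 for Vil1, -1.65 for Slc15a1, -1.54 for Dpp4 and -1.21 for Mme. The exception was Anpep, at 9.49 and 8.97 in stomach and 7.08 and 8.30 in colon, a difference of 1.54 (SE 0.455, adjusted p = 0.0139), which dropped to 0.93 (adjusted p = 0.215) without the first undosed colon pool. The second undosed colon pool carried more small intestinal signal, with Si, the sucrase gene, at 8.96, against 5.14 in the first pool and 13.16 to 13.32 in undosed jejunum. Its part in the colon values was not tested. Without that pool the Slc15a1 difference between stomach and colon was -1.40 with an adjusted p of 0.0812.

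**Figure D1:**
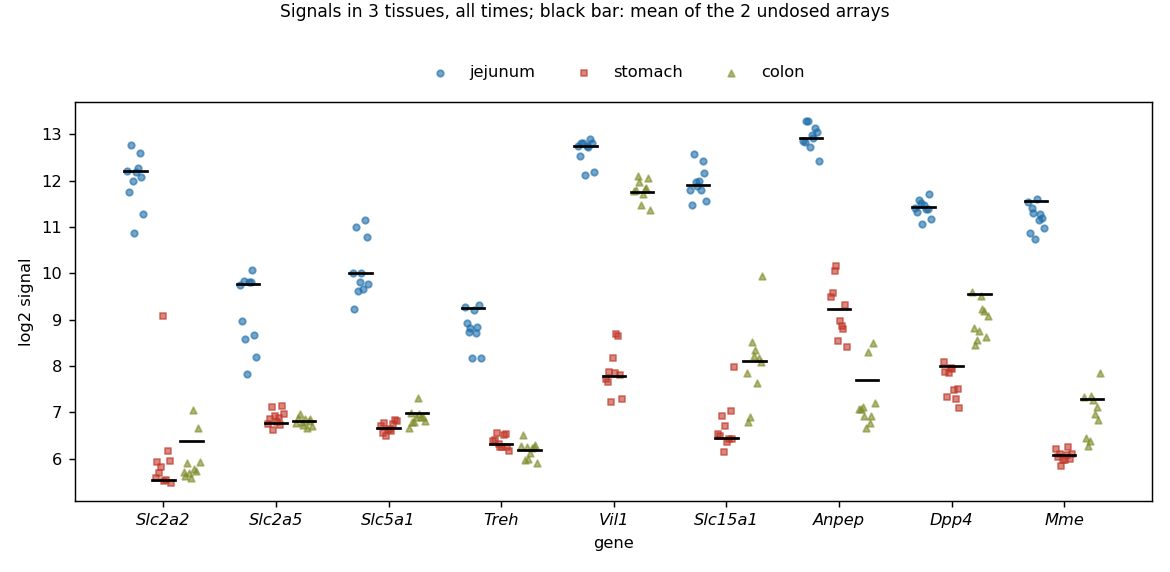
The log2 signal of the 9 measured genes (x axis) on all 30 arrays (y axis, log2 units), with jejunum arrays as circles, stomach arrays as squares and colon arrays as triangles, and a black bar for the mean of the 2 undosed arrays. Jejunum lies highest for every gene, Vil1 comes close to it in the colon, and a lone stomach square marks Slc2a2 at 9.08 in the first pool at 72 h.

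The RefSeq promoter table (build GRCr8) has a window for 8 of the 9 measured genes. Each is 300 bases long, from 250 bases before the table's start to 50 after. On this build Slc2a2 lies at chr2:113537884-113568422, Slc2a5 at chr5:165857412-165892928, Slc5a1 at chr14:81778495-81843084, Treh at chr8:53886946-53901113 and Vil1 at chr9:83440248-83467963. Slc15a1 lies at chr15:104944461-104991316, Anpep at chr1:143176645-143219447, Dpp4 at chr3:67370794-67452422 and Mme at chr2:149806826-149957381. The table's start lies inside the annotated gene for 5 of the 8: Slc2a2, Slc2a5, Slc15a1, Anpep and Mme. These include every gene printed below, so the printed windows and their matches lie inside the annotated genes and not before them. Distances given below are counted from the table's start. Windows were searched on both strands for short forms of motifs named for intestinal transcription factors: GTTAAT for HNF1, CAAAGT for HNF4, TTTATG for CDX2, TTTACG as a second form for CDX2, AGATAA for GATA factors and TATAAA for the TATA box. Only 3 of the 8 held any of them, 1 match each. The 3 are printed with Slc2a2, the member with the largest tissue difference and no match, because these genes share a tissue and, in part, a course after the drug. Capitals mark the match, and each sequence runs 5′ to 3′ on the strand of its gene.
Slc2a2, chr2:113540120-113540419, plus strand: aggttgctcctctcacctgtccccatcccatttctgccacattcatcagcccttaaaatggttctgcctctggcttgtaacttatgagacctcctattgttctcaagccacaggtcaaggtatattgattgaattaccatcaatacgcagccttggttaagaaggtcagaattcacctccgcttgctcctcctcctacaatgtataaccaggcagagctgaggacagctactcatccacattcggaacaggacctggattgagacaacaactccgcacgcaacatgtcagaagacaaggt
Slc2a5, chr5:165865929-165866228, plus strand: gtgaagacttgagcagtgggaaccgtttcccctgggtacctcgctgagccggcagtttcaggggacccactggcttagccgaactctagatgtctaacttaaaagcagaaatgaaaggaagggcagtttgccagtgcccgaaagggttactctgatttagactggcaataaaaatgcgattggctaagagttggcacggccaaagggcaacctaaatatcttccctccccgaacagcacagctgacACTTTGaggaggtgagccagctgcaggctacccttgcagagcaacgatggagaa
Anpep, chr1:143195052-143195351, minus strand: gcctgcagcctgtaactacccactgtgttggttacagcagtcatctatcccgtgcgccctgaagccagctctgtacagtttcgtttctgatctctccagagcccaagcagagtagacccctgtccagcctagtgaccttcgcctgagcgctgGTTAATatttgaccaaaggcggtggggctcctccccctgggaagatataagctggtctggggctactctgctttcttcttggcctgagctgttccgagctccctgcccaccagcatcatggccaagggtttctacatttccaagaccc
Slc15a1, chr15:104949295-104949594, minus strand: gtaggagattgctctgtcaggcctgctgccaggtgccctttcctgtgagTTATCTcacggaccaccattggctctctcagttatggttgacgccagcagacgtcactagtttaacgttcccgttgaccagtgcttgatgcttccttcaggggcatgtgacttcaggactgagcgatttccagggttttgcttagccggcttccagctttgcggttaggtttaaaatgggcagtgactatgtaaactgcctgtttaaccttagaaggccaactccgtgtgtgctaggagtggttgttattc

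In Anpep the HNF1 motif begins 98 bases before the start, and 7.45% of the 33469 promoters of the table hold this motif. In Slc2a5 the HNF4 motif lies on the opposite strand and begins 4 bases before the start, and 14.8% of promoters hold it. The GATA match of Slc15a1 is on the opposite strand and begins 201 bases before the start, with 11.6% of promoters holding the motif. The CDX2 motif (12.7% of promoters), its second form (2.95%) and the TATA box (14.2%) were in none of the 8 windows.

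After irinotecan, the members' calls against 0 h were all in the jejunum at 72 h. There 6 of the 9 measured genes were lower than in undosed jejunum and none was higher, where 12% of all probe sets were lower and 23.9% changed in either direction. The 6 were Slc2a5, Slc2a2, Treh, Mme, Vil1 and Dpp4. The sizes differed: the fructose carrier was 3.42-fold lower, the sugar exporter 2.18-fold and trehalase 2.09-fold, while the glucose uptake carrier Slc5a1 and the peptide carrier Slc15a1 differed by 0.21 log2 units or less. The median log2 fold change was -0.60 for the 9 genes and -0.07 for all probe sets. In whole tissue, fewer absorptive cells and less RNA per cell cannot be told apart.

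Slc2a5 stood lowest relative to its start. Its log2 signal was 7.83 and 8.19 at 72 h, against 9.75 and 9.82 at 0 h (log2 fold change -1.78, SE 0.232, adjusted p = 0.00191). Both dosed pools lay well under both undosed pools, yet above the highest stomach value of 7.13. At 24 h its pools lay close together at 8.59 and 8.66, a difference of -1.16 (SE 0.232) that did not pass the threshold (adjusted p = 0.0751).

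Slc2a2 had 10.87 and 11.28 at 72 h, against 12.20 and 12.19 at 0 h (-1.12, SE 0.174, adjusted p = 0.00377). Treh was 8.18 in both pools at 72 h, against 9.28 and 9.21 at 0 h (-1.06, SE 0.146, adjusted p = 0.00231). For both genes the 72 h arrays lay under the 0 h arrays. The 2 groups did not overlap for 8 of the 9 members and 73.4% of all probe sets.

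Of the peptidases, Mme and Dpp4 were lower. Mme read 10.74 and 10.97 at 72 h, against 11.54 and 11.60 at 0 h (-0.72, SE 0.117, adjusted p = 0.00462). Dpp4 read 11.06 and 11.18, against 11.41 and 11.48 (-0.32, SE 0.101, adjusted p = 0.0472), and its other probe set 8.97 and 9.06, against 9.78 and 9.67 (-0.70, SE 0.117, adjusted p = 0.00498). The Dpp4 probe sets thus differ in size and share a direction. Anpep was 12.73 and 12.43 at 72 h and 12.85 and 12.98 at 0 h (-0.34, SE 0.127, adjusted p = 0.08), which did not pass the threshold.

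Villin, the scaffold gene, had very even arrays. Vil1 was 12.12 and 12.18 at 72 h, against 12.74 and 12.76 at 0 h (-0.60, SE 0.085, adjusted p = 0.00259), a 1.52-fold lower signal. Slc15a1 was 11.89 and 11.56 at 72 h, against 11.79 and 12.00 at 0 h (-0.17, SE 0.147, adjusted p = 0.406), and these groups overlapped. Slc5a1 was 9.81 and 9.77, against 10.00 and 10.00 (-0.21, SE 0.301, adjusted p = 0.632).

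Slc2a5, Treh and Mme passed the threshold at 72 h in all 11 other settings tried, and Slc2a2 and Vil1 in 10 of 11. The exception was 1 fit of all 30 arrays, where the adjusted p of Slc2a2 was 0.237 and of Vil1 0.139, and only 3 of the 9 passed. Dpp4 passed in 4 of 12 settings and lost its call whichever array of the 2 groups was left out (adjusted p 0.0896 to 0.225).

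**Figure D2:**
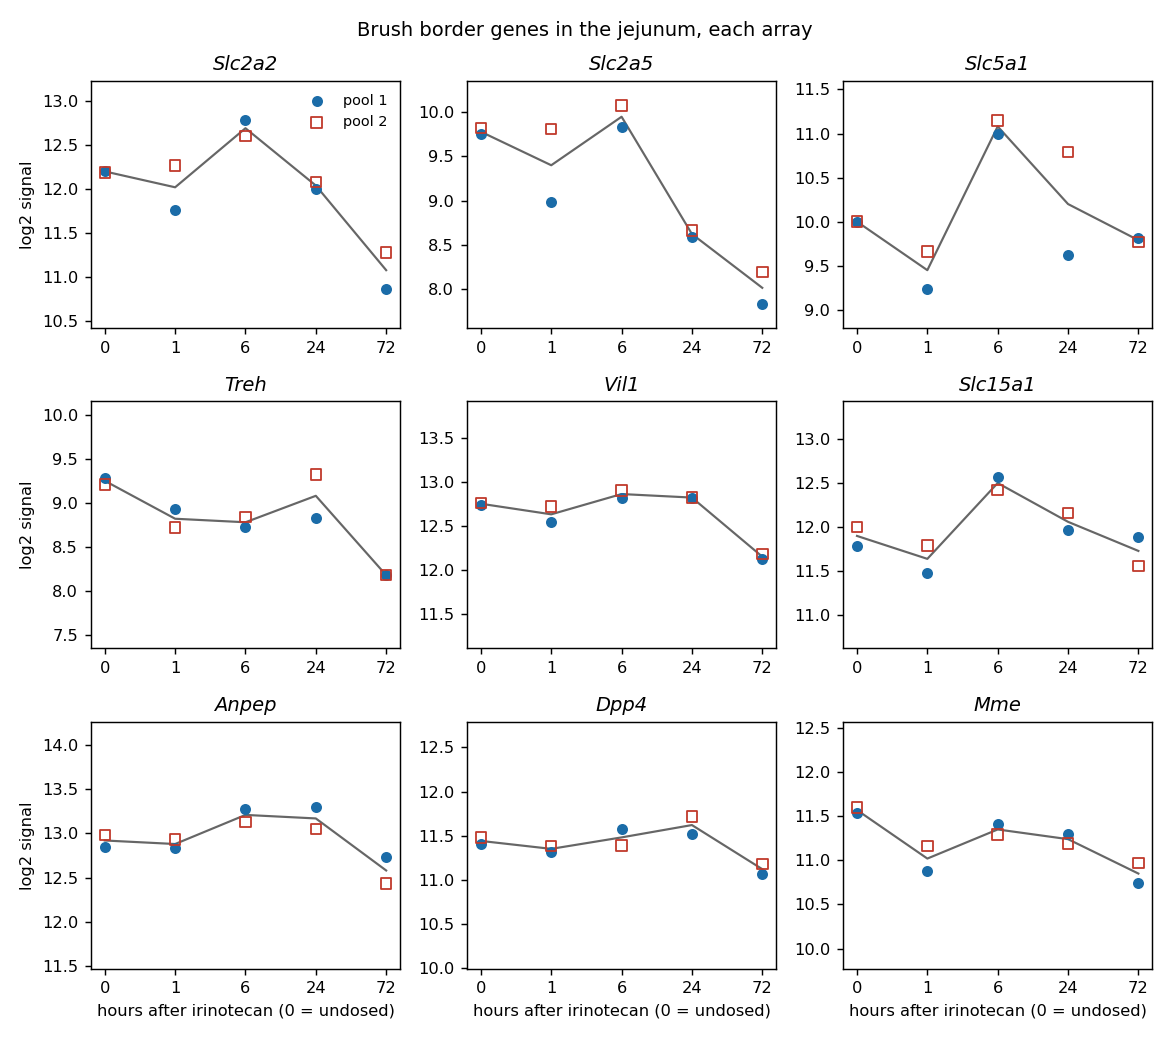
The log2 signal (y axis, log2 units, each panel spanning an equal height) of each gene in the jejunum by hours after irinotecan (x axis, evenly spaced, 0 for undosed rats), with pool 1 as filled circles, pool 2 as open squares and a line through the means. All genes but Slc5a1 and Slc15a1 have their lowest mean at 72 h, and Slc2a2, Slc2a5, Slc5a1, Vil1, Slc15a1 and Anpep have their highest at 6 h.

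Markers of other cell types changed on the same arrays. Counts of markers here stand beside 12% lower and 11.9% higher among all probe sets at 72 h. The 13 absorptive cell markers averaged 12.78 and 12.58 at 72 h, against 12.86 and 12.81 at 0 h. Of the 13, 2 were lower, near the share of all probe sets, and none was higher. The 2 were Mogat2 and Dgat1, enzymes of fat synthesis, with log2 fold changes of -0.91 and -0.41, and the median of the 13 was -0.20. Fibroblast markers averaged 10.24 and 10.12, against 9.22 and 9.17, with 7 of 8 higher. Smooth muscle markers averaged 10.66 and 10.75, against 9.93 and 10.14, with 3 of 9 higher. Macrophage markers averaged 8.34 and 8.16, against 7.33 and 7.52, with 3 of 9 higher and 1 lower. Markers of crypt base and dividing cells averaged 9.34 and 9.30, against 8.82 and 8.71, with 6 of 10 higher. The part of these cells in the lower brush border signals was not tested.

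**Figure D3:**
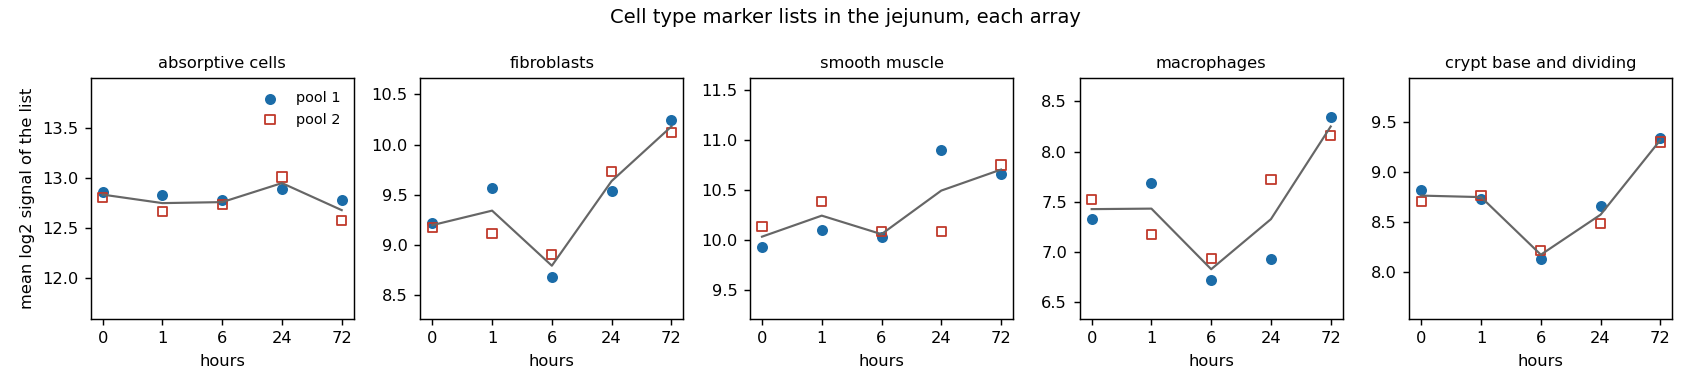
Mean log2 signal (y axis) of 5 cell type marker lists on each jejunum array by hours after irinotecan (x axis, evenly spaced), with pool 1 as filled circles, pool 2 as open squares and a line through the means. At 72 h the fibroblast mean is 10.24 and 10.12, against 9.22 and 9.17 at 0 h, while the absorptive cell mean is 12.78 and 12.58, against 12.86 and 12.81.

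Against 24 h, the jejunum at 72 h had 5 of the 9 genes lower and none higher, where 4.15% of all probe sets were lower and 12.9% changed. This and the comparison with 0 h share the 72 h arrays, so the second is no independent support for the first. Vil1 had the smallest adjusted p of the 5, at 12.12 and 12.18 at 72 h, against 12.82 and 12.82 at 24 h (-0.67, SE 0.085, adjusted p = 0.00242). Treh was lower by 0.89 log2 units (adjusted p = 0.00614), Slc2a2 by 0.96 (adjusted p = 0.00901), Dpp4 by 0.50 (adjusted p = 0.0141) and Anpep by 0.60 (adjusted p = 0.017). Anpep, which did not pass against 0 h, read 12.73 and 12.43 at 72 h, against 13.30 and 13.05 at 24 h. The further difference of Slc2a5 did not pass (-0.62, SE 0.232, adjusted p = 0.111). The count was 2 without the first and 3 without the second pool at 72 h, when 2.94% and 4.38% of all probe sets changed. The Slc5a1 difference was -0.41 (limma adjusted p = 0.375). It was -0.99 without the first 24 h pool, whose GAPDH ends differed, and 0.18 without the second, each time with 1 array left at 24 h.

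At 6 h in the jejunum no member passed the threshold (0 of 9, where 3.49% of all probe sets changed in either direction). At an unadjusted p under 0.05 in limma there were 5 of 9, beside 19.9% of all probe sets. The 3 luminal carriers differed in size. Slc5a1 was 11.00 and 11.15 at 6 h, against 10.00 and 10.00 at 0 h (1.07, SE 0.301, adjusted p = 0.0906), and Slc15a1 was 12.57 and 12.42, against 11.79 and 12.00 (0.60, SE 0.147, adjusted p = 0.0621). Neither gene's arrays overlapped, which held for 8 of the 9 members and 60.6% of all probe sets in this comparison. Slc2a5 was 9.83 and 10.08, against 9.75 and 9.82 (0.17, SE 0.232, adjusted p = 0.731). Slc2a2 was 12.78 and 12.60, against 12.20 and 12.19 (0.50, SE 0.174, adjusted p = 0.159), and Anpep 13.28 and 13.13, against 12.85 and 12.98 (0.29, SE 0.127, adjusted p = 0.245). Treh went the other way, at 8.73 and 8.84, against 9.28 and 9.21 (-0.46, SE 0.146, adjusted p = 0.125).

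The 6 h count depended on the spread between the pools of another time. The spread of the fit is shared by all jejunum arrays, and the pools at 24 h differed from each other, at 9.62 in the first and 10.79 in the second for Slc5a1. A lone array at 24 h adds nothing to that spread, so leaving out either 24 h pool gives the same fit at 6 h. The change at 6 h therefore cannot point to 1 of these pools or to its GAPDH ends. The pool left out here was the first. Without that pool, whose GAPDH ends also differed, 3 of the 9 passed at 6 h: Slc5a1 higher (adjusted p = 0.000488), Slc15a1 higher (0.0137) and Treh lower (0.00786), with the fold changes as given. In that setting 13.6% of all probe sets changed at 6 h, against 3.49% with the pool. The fibroblast mean at 6 h was 8.68 and 8.90, against 9.22 and 9.17 at 0 h. That of dividing cells was 8.13 and 8.22, against 8.82 and 8.71. With all arrays 5 of these 10 markers were lower, beside 1.19% of all probe sets. The mean of absorptive cell markers was 12.78 and 12.74, against 12.86 and 12.81. The part of these cells in the 6 h values was not tested.

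At 1 h no member passed in the jejunum (0 of 9, 0.0354% of all probe sets, and 2 of the 9 at an unadjusted p under 0.05 in limma, beside 4.73% of all). All 9 fold changes were below 0, from -0.55 to -0.03. Mme was 10.88 and 11.16 at 1 h, against 11.54 and 11.60 at 0 h (-0.55, SE 0.117, limma adjusted p = 0.371). Its groups did not overlap, which held for 6 of the 9 members and 36.3% of all probe sets. Slc5a1 was 9.24 and 9.66, against 10.00 and 10.00 (-0.55, SE 0.301, adjusted p = 1). At 24 h none passed either (0 of 9, 0.409% of all probe sets, and 2 at an unadjusted p under 0.05 in limma, beside 16% of all). Slc5a1 split at that time, at 9.62 in the first pool and 10.79 in the second, around 10.00 and 10.00 at 0 h. Leaving out a 24 h pool leaves 1 array at that time, so only fold changes are given. Without the first pool they were -1.12 for Slc2a5, 0.79 for Slc5a1 and 0.07 for Treh. Without the second they were -1.20, -0.38 and -0.41. With both pools they were -1.16, 0.20 and -0.17.

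Across the 10 jejunum arrays, some members followed each other. Pearson's r was 0.92 for Slc2a2 with Vil1, 0.90 for Slc5a1 with Slc15a1 and 0.89 for Slc2a2 with Slc2a5, and lowest, at 0.20, for Treh with Slc15a1. These are descriptions over 10 arrays that share times and pools. Outside the set, among 9652 genes, Slc4a4 (r = 0.985), Atp11b (0.976) and Slc37a4 (0.966) were most like Slc2a2. Gna11 (0.973), Ccng2 (0.971) and Gata5 (0.964) were most like Slc5a1, and Trpc4ap (0.943), Ccng2 (0.937) and Tbc1d10b (0.935) most like Slc15a1, so Ccng2 stood on the lists of Slc5a1 and Slc15a1. Slc2a5 was closest to Foxred1 (0.979), Treh to Pde1b (0.983), Vil1 to Zic2 (0.979) with the brush border peptidase gene Xpnpep2 next (0.975), Anpep to Cds1 (0.964), Dpp4 to Acap1 (0.935) and Mme to C13h1orf21 (0.934).

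The response of 2 members differed between tissues at 72 h, by the test of the interaction (2 of 9, where 2.28% of all probe sets passed). The Slc2a5 response in jejunum was 1.95 log2 units below that in stomach and 1.68 below that in colon (adjusted p = 0.00283). The Treh response was 0.96 below that in stomach and 0.82 below that in colon (adjusted p = 0.0157), and it lost its call with any 1 of the 4 jejunum arrays left out (adjusted p 0.0631 to 0.0767). Slc2a5 ranged only from 6.61 to 7.13 on the stomach arrays and from 6.65 to 6.96 on the colon arrays, and Treh from 6.17 to 6.55 and from 5.91 to 6.50. Their median signals there lay at percentiles 45.1 and 44.8 (Slc2a5) and 26.6 and 25.1 (Treh) of all probe sets in stomach and colon, so both genes had little room to fall. The test therefore does not show that those tissues respond differently. Slc2a2 had a difference of -2.86 from the stomach, where its pools at 72 h lay far apart, and did not pass (adjusted p = 0.154). At 1, 6 and 24 h no member passed in limma's interaction test, where 0.00322%, 0.251% and 0.229% of all probe sets did, and 1, 2 and 2 members had an unadjusted p under 0.05, beside 9.07%, 13.7% and 13.2% of all.

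In the stomach no member changed past the threshold at any time. The counts were 0 of 9 at 1 h, 6 h, 24 h and 72 h, beside 0.0161%, 0.0322%, 0.0161% and 0.00644% of all probe sets, and 0, 2, 0 and 1 members had an unadjusted p under 0.05 in limma, beside 5.72%, 8.83%, 8.34% and 7.56% of all. Between 72 h and 24 h it was also 0 of 9 (0.00322% of all probe sets, and 2 members at an unadjusted p under 0.05 in limma, beside 15% of all). Slc2a2 gave the widest values: 9.08 and 5.48 at 72 h, against 5.58 and 5.51 at 0 h. The first pool, which holds the pancreatic and liver transcripts given above, was the only stomach array over 6.16, and the fold change of 1.74 (SE 0.907) was -0.06 without it. Slc2a2 is known to be expressed also in liver and pancreatic islets, and the part of such tissue in its value was not tested. Slc15a1 showed the opposite: 6.70 and 7.98 at 72 h, against 6.53 and 6.36 at 0 h (0.89, limma adjusted p = 0.656). The difference became 1.53 when the first pool was left out, which leaves 1 array at 72 h. That array stood apart as well: its Alb was 10.46. Its squamous epithelium markers averaged 11.20, against 7.09 to 9.32 on the other stomach arrays. At 72 h the absorptive cell marker mean was 9.20 (first pool) and 8.24 (second pool), against 7.45 and 7.55 at 0 h. Si, the sucrase gene, was 5.32 in the first pool and 5.53 in the second, against 5.22 and 5.33 at 0 h. The first pool also held liver transcripts, so its higher marker mean does not show that it held more small intestinal RNA. The part of such RNA in the Slc15a1 values was not tested.

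In the colon no member passed against 0 h. The counts were 0 of 9 at 1, 6, 24 and 72 h, beside 0%, 1.19%, 1.14% and 1.32% of all probe sets, and 1, 1, 3 and 2 members had an unadjusted p under 0.05 in limma, beside 14.9%, 14.1%, 16.7% and 17.2% of all. Dpp4 came closest. It was 9.60 and 9.51 at 0 h, 8.82 and 9.24 at 1 h, 8.45 and 9.19 at 6 h, 8.57 and 8.62 at 24 h and 8.75 and 9.08 at 72 h, so all 8 dosed arrays lay under both undosed ones. At 24 h the log2 fold change was -0.96 (SE 0.220, adjusted p = 0.0744), and the other Dpp4 probe set gave -0.77 (SE 0.152, adjusted p = 0.0423). Without the 3 colon arrays past the limit for stomach or pancreatic transcripts the Dpp4 fold change at 24 h was -0.93, and without the first 24 h pool alone -0.93. Either way 1 array was left at 24 h. At 72 h the Dpp4 fold change was -0.80 without those 3 arrays, against -0.63 with them. At 6 h it was -0.37 without them, against -0.74 with them. Each time 1 array was left at that time. Mme, none of whose differences from 0 h passed, read 7.33 and 7.26 at 0 h, 6.44 and 6.97 at 1 h, 6.28 and 7.12 at 6 h, 6.39 and 6.83 at 24 h and 7.36 and 7.85 at 72 h.

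Between 24 and 72 h, 1 of the 9 was lower in the colon (2.33% of all probe sets were lower and 6.73% changed). Vil1 was 11.47 and 11.36 at 72 h, against 11.97 and 12.05 at 24 h (-0.60, SE 0.112, adjusted p = 0.0166). The call was lost without the first colon pool at 24 h (adjusted p = 0.0689) or either pool at 72 h (0.0513 each), and without the 3 arrays that hold transcripts of another organ (0.0666). Mme was 7.36 and 7.85 at 72 h, against 6.39 and 6.83 at 24 h (1.00, SE 0.277, adjusted p = 0.0574), or 0.53 (adjusted p = 0.269) without those arrays. Slc15a1 was 8.21 and 9.94 at 72 h, against 8.51 and 8.09 at 24 h, and its high value came from the pool with acinar markers at 12.00; the other 72 h pool lay between the 24 h pools. Anpep followed the small intestinal signal of single pools: it was highest in the second pools at 0 h and 24 h (8.30 and 8.50), where Apoa4 was 8.71 and 10.31, and 6.66 to 7.20 in all other colon pools, where Apoa4 was 6.66 to 7.23. How far these transcripts set the Anpep values was not tested.

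**Figure D4:**
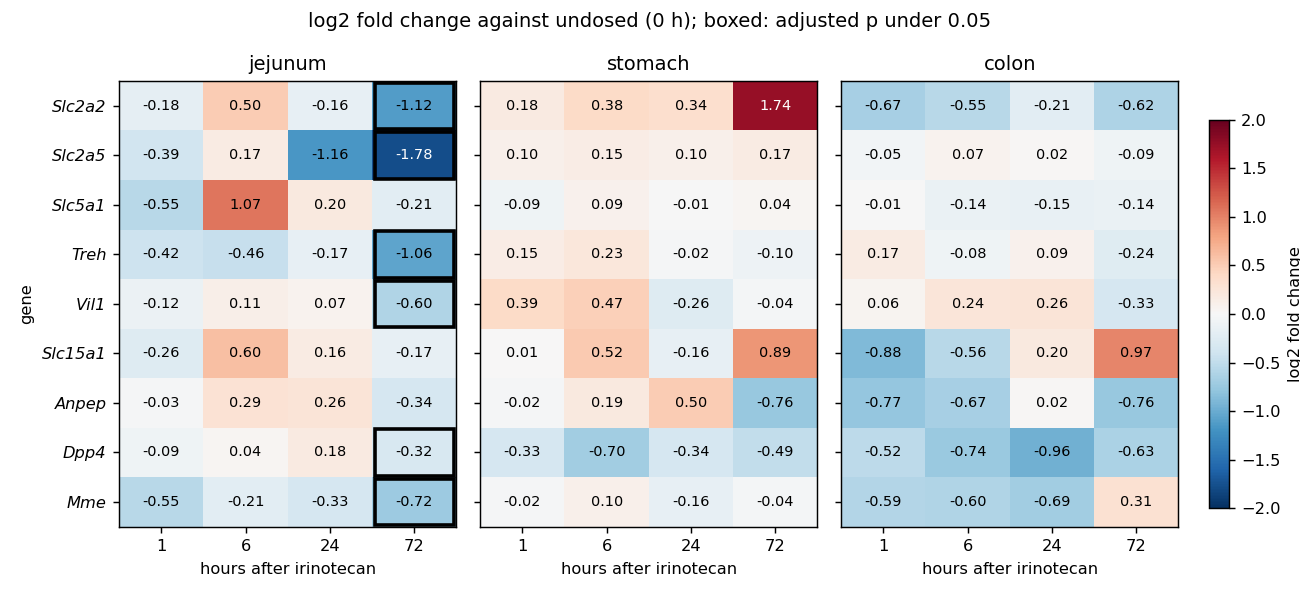
Log2 fold change against undosed rats of the same tissue (colour, and printed in each cell) for the 9 genes (rows) at 1, 6, 24 and 72 h (columns) in jejunum, stomach and colon; black boxes mark an adjusted p under 0.05. Only jejunum at 72 h has boxes, 6 of 9, and the stomach value of 1.74 for Slc2a2 comes from a pool that stood apart.

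Related genes of the jejunum, from lists that leave out the 9 members, were counted at 72 h in the same way, beside 12% lower and 11.9% higher among all probe sets. Of 11 measured saccharidases and peptidases, 7 were lower at 72 h and 1 higher, with a median log2 fold change of -0.39 beside -0.07 for all probe sets, and 1 to 2 were lower with any 1 of the 4 arrays left out. Xpnpep2, an aminopeptidase for proline-bearing peptides, was 9.06 and 9.15 at 72 h, against 10.03 and 10.35 at 0 h (-1.09, adjusted p = 0.00191). Enpep, aminopeptidase A, fell by 0.68 and Ace, the angiotensin converting enzyme, fell by 0.49. The gene that was higher, Dpp7, encodes a peptidase inside vesicles and not at the membrane (0.55, adjusted p = 0.014), and no gene of the list was higher with any 1 of the 4 arrays left out.

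Of 12 measured genes of sugar transport and handling, 5 were lower and 2 higher (median -0.66), and 4 to 5 were lower with any 1 of the 4 arrays left out. Khk, the kinase that starts fructose breakdown, was 9.95 and 10.17 at 72 h, against 11.11 and 11.02 at 0 h (-1.0, adjusted p = 0.000806). Slc5a11, a sodium-coupled inositol carrier, was 9.23 and 9.24, against 10.15 and 10.33 (-1.0, adjusted p = 0.000989). Slc37a4, the glucose 6-phosphate carrier, was 9.04 and 9.19, against 9.85 and 9.81 (-0.72, adjusted p = 0.00191). It also stood among the 3 genes most like Slc2a2.

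Of 13 amino acid and peptide transporters, 5 were lower and 2 higher (median -0.44). Slc7a7, which passes cationic amino acids to the blood side, was 10.07 and 10.17 at 72 h, against 11.25 and 11.18 at 0 h (-1.10, adjusted p = 0.00064), and Slc7a8 fell by 0.77. Slc7a5, a carrier that dividing cells use, rose (0.64, adjusted p = 0.00242). With any 1 of the 4 arrays left out, 1 to 4 were lower. Of 27 carriers of vitamins, minerals, nucleosides and monocarboxylates, 6 were lower and 6 higher (median -0.10), among the lower Slc23a1, the vitamin C carrier (-0.85, adjusted p = 0.000584), and S100g, the calcium-binding protein of the gut (-0.99, adjusted p = 0.00139). With any 1 of the 4 arrays left out, 4 to 5 of these carriers were lower and 0 to 3 higher.

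Of 23 microvillus genes, 8 were lower and 1 higher (median -0.24), and 3 to 5 were lower with any 1 of the 4 arrays left out. Ush1c, a scaffold of the links between microvillus tips, was 9.35 and 9.40 at 72 h, against 10.08 and 10.18 at 0 h (-0.75, adjusted p = 0.00122). Pdzk1, a scaffold under the membrane, fell by 0.75 and Anks4b, a partner of Ush1c, fell by 0.68. Prom1, which also marks crypt base cells, was the gene that rose, at 10.32 and 10.60, against 9.41 and 9.47 (1.02, adjusted p = 0.00102). Of 20 transcription factor genes of absorptive cells, 3 were lower and 4 higher (median -0.10), shares near those of all probe sets: Creb3l3 fell by 0.52, and Cdx1, a factor of the crypt, rose (0.57, adjusted p = 0.0311). At most 1 of the rises and 1 to 2 of the falls in this list passed with any 1 of the 4 arrays left out.

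At 6 h the same lists were set beside 2.3% higher and 1.19% lower among all probe sets. Of the 27 vitamin and mineral carriers 7 were higher and none lower. Slc26a3, the chloride and bicarbonate exchanger, was 10.45 and 10.33 at 6 h, against 9.27 and 9.46 at 0 h (1.02, adjusted p = 0.00544), and Slc9a3, the sodium and proton exchanger, was 11.34 and 11.32, against 10.56 and 10.53 (0.79, adjusted p = 0.00867). Among the 20 transcription factors Gata5 (0.84, adjusted p = 0.03) and Creb3l3 (0.33, adjusted p = 0.0493) rose, and Gata5 stood among the 3 genes most like Slc5a1. Of the sugar genes 2 were higher and 1 lower, of the microvillus genes 2 higher and 1 lower, of the amino acid carriers 1 higher, and of the saccharidases and peptidases none passed. With any 1 of the 4 arrays left out, at most 1 vitamin or mineral carrier and no gene of the 4 other lists with calls passed at 6 h.

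In the colon between 24 and 72 h, 9 of the 23 microvillus genes were lower and none higher (median -0.35 beside -0.05 for all probe sets), as was Vil1. The counts in this comparison stand beside 2.33% lower and 4.4% higher among all probe sets. Anks4b was 9.77 and 9.84 at 72 h, against 10.83 and 10.77 at 24 h (-0.99, adjusted p = 0.00217), and Cdhr2, a protocadherin of microvillus tips, was 10.69 and 10.60, against 11.64 and 11.64 (-1.0, adjusted p = 0.0112). With any 1 of the 4 arrays left out, 3 to 8 were lower, and 7 were lower without the arrays that hold transcripts of another organ. Slc9a3 fell by 1.25 and Slc39a4, the zinc carrier, fell by 1.37 in the same comparison. In the same arrays 5 of 9 smooth muscle markers were lower and 6 of 10 dividing cell markers higher, and their part was not tested.

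**Figure D5:**
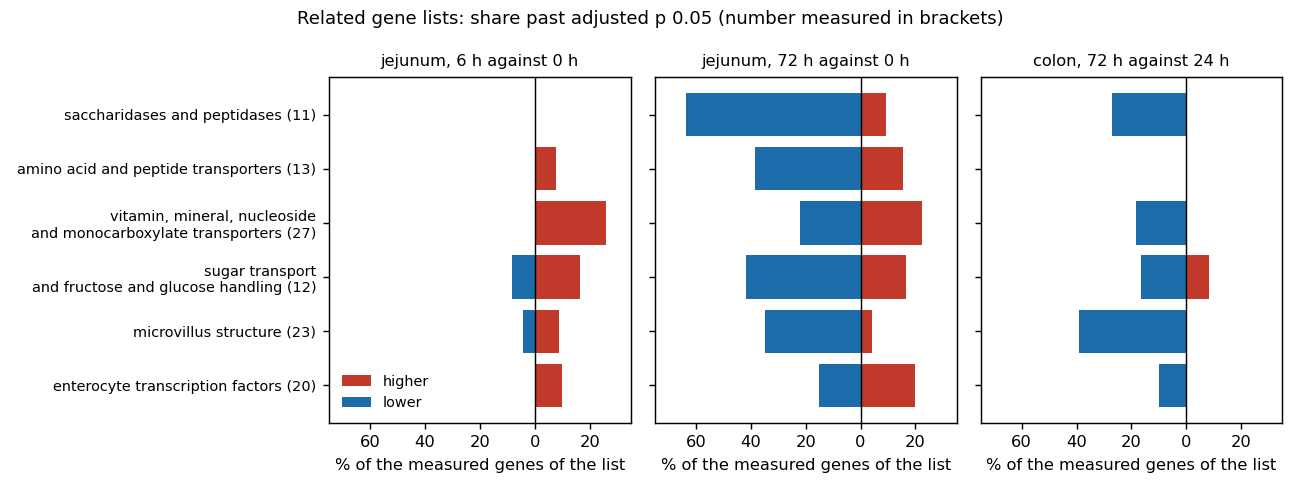
Share of the measured genes of 6 related lists (rows, number measured in brackets) that passed an adjusted p of 0.05, higher to the right and lower to the left of 0, in jejunum at 6 h and at 72 h against 0 h and in colon at 72 h against 24 h. Of the 11 saccharidases and peptidases 7 are lower in jejunum at 72 h, against 0 at 6 h.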

How the data were processed

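The deposited values are log2 expression values made with RMA, a method that summarises the probes of a probe set, per the submitters' processing notes, and the sources used here give no RMA version. The table held 31099 probe sets on 30 arrays, with array medians of 6.97 to 7.06; 57 array controls were left out. Of the 31042 probe sets tested, 20826 carry 1 gene symbol in the platform annotation, 436 several and 9780 none. The members and gene lists were chosen with earlier results of these data known. Each tissue was fitted with limma 3.58.1 (R 4.3.3) on its 10 arrays, all 5 times in 1 fit, with Benjamini-Hochberg adjustment over all 31042 probe sets and a threshold of 0.05. Undosed tissues were compared, and the response was compared between tissues by F tests of the interaction, in 1 fit of all 30 arrays. Arrays of different tissues from the same rats were treated as independent there. With 2 pools a group, p-values measure the spread between pools, and the number of arrays limits the precision. The text names all measured members, at most 4 genes per list and comparison by adjusted p, and the 3 genes most correlated with a member in the jejunum. The labels do not say whether same-numbered pools of different tissues hold the same rats, and the main fits did not pair them. Deviations of same-numbered pools correlated from -0.215 to 0.503 between tissues, with 0.503, 0.319 and 0.358 at 24 h. This does not decide whether they were paired. Alternatives were a filter on dim probe sets, quantile normalization, other variance settings, array weights, a replicate block, and arrays left out. The fits were also run on simulated data, and the outcome is not reported here. Promoter sequences are from RefSeq (GRCr8).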

Additional observations from a re-analysis of the deposited data

Results flagged for a closer look

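The response at 72 h differed between tissues for 2 members by the test of the interaction in limma. For Slc2a5 the adjusted p was 0.00283, with a log2 response in jejunum 1.95 below that in stomach and 1.68 below that in colon. For Treh the adjusted p was 0.0157, with a response 0.96 below that in stomach and 0.82 below that in colon. The Treh call was lost with any 1 of the 4 jejunum arrays left out (adjusted p 0.0631 to 0.0767). In stomach and colon the median signals of Slc2a5 lay at percentiles 45.1 and 44.8 of all probe sets and those of Treh at 26.6 and 25.1, so both had little room to fall there, and the test does not show that those tissues respond differently.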

How the results depend on the processing

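The number of members called depended on several settings, and the cause was not tested. Brackets give the main count and, where each compared group kept 2 arrays, the share of all probe sets called in that setting. The other counts come from fits that left 1 array in a group and only show how far calls hang on single arrays. In 1 fit of all 30 arrays the number was 3 in the jejunum at 72 h (6, 19.1%) and 1 at 72 against 24 h (5, 10.5%). It was 1 at 6 h (0, 2.54%) and 1 at 24 h (0, 0.222%) there, and 1 in the colon at 24 h (0, 2.89%). Array weights gave 4 in the jejunum at 6 h (0, 16.1%) and 3 at 72 against 24 h (5, 5.63%), and quantile normalization gave 1 at 6 h (0, 3.36%). Without the array with unequal GAPDH ends it was 3 at 6 h in the jejunum (0, 13.6%), while 1 array was left at 24 h. The replicate block gave 1 in the colon at 24 h (0, 1.23%) and 2 at 72 against 24 h (1, 6.37%). The other probe set of Dpp4 gave 1 in the colon at 24 h (0, 1.14%). Without arrays holding transcripts of another organ it was 1 in the stomach at 72 h (0) and at 72 against 24 h (0), 1 in the colon at 24 h (0) and 72 h (0), and 0 at 72 against 24 h (1). Without arrays high in Apoa4, a rule chosen after seeing the data, it was 1 in the stomach at 72 h and at 72 against 24 h (0 each), and 0 in the colon at 72 against 24 h (1). For the test between tissues, leaving out the arrays of the GAPDH and organ rules gave 2 at 6 h (0), 1 at 24 h (0) and 4 at 72 h (2).

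Leaving out 1 array gave 0 to 1 in the stomach at 72 h, 0 to 2 in the jejunum at 24 h, 0 to 1 in the colon at 6 h, 0 to 1 in the stomach at 72 against 24 h, 2 to 6 in the jejunum at 72 against 24 h, 0 to 2 in the colon at 72 against 24 h, and 1 to 3 for the test between tissues at 72 h. The share of all probe sets called moved as well: in the jejunum at 6 h it was 16.1% with array weights and 13.6% without the GAPDH array, against 3.49%, and for the test between tissues at 72 h 14.9% without the arrays of both rules, against 2.28%. In 1 fit of all 30 arrays it was 19.1% in the jejunum at 72 h, against 23.9%. Fold changes that turned in sign were Slc2a2 in the stomach, at -0.06 at 72 h and -0.40 against 24 h without the first 72 h pool (which the organ rule and the Apoa4 rule leave out), with ranges of -0.06 to 3.53 and -0.40 to 3.19. Slc5a1 in the jejunum ranged from -0.38 to 0.79 at 24 h and from -0.99 to 0.18 at 72 against 24 h, and Treh at 24 h from -0.41 to 0.07, with 0.07 without the pool with unequal GAPDH ends. Signals near the bottom of the scale limit what could be seen in stomach and colon.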
